A study of Mus musculus with 6 samples.

Results

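The cytoplasmic ribosomal protein genes were taken by name: every gene whose platform symbol is Rpl or Rps followed by a digit, with Rplp0, Rplp1, Rplp2 and Rpsa, leaving out the Rps6k kinases and symbols marked -ps. The rule found 63 of the 19938 genes measured by a probe set with exactly 1 symbol, and all 63 were tested, with no filter on dim genes. They hold 33 proteins of the large (60S) subunit, 21 of the small (40S) subunit and 7 paralogs or processed copies. The symbol rule also took in Rps19bp1 and Rps23rg1, which are named after a ribosomal protein and are not themselves subunits of the ribosome. A further 20 symbols that meet the rule, among them Rpl3, Rpl11, Rpl13a, Rpl22l1 and Rps27, were found only on probe sets shared with other symbols and have no value of their own here.

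RNA was measured on 6 Affymetrix arrays, 3 from wild-type (Roquin+/+) and 3 from sanroque (Roquinsan/san) mice, all on the C57BL/6 background and 10 weeks old. Sanroque mice are homozygous for a point mutation of Roquin, an RNA-binding protein encoded by Rc3h1 that represses the mRNAs it binds; the mutation is present in every cell of the animal. The cells studied were CD8+ T lymphocytes low in CD44, sorted from spleen and lymph nodes without treatment, and the labels name them biological replicates but do not say whether animals were pooled. Values are log2 of the deposited intensity, which has no absolute unit, and they allow comparison of 1 gene between arrays but not of different genes with each other.

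The sorted cells matched their label in that Cd8a, a coreceptor chain of these cells, read between 12.99 and 13.05 on all 6 arrays. Cd44, the surface marker by which cells with a low level were sorted, read 5.98 to 6.43 in wild type and 7.34 to 7.90 in sanroque, with a log2 fold of 1.40 ± 0.17 (adjusted p = 0.00669 by limma with Benjamini-Hochberg). Rc3h1 read between 9.93 and 10.30, which does not check the genotype because the allele is a point mutation. Sanroque replicate 1 stood apart in genes of the sex chromosomes. Its Xist reading was 11.20, against 4.02 to 4.17 on the other 5 arrays, and its reading of the Y-linked gene Uty was 3.92, against 8.57 to 9.06. Markers of other cells also moved with genotype. The summed intensity of 15 myeloid genes was 948 to 1891 in wild type and 9426 to 13948 in sanroque, with 14 of the 15 called higher. That of 12 B cell genes was 2593 to 6575 and 9712 to 12121, with 7 called higher, and that of 7 CD8 T cell genes was 37199 to 38976 and 33965 to 35793, with 2 called lower. Genes of plasma cells, CD4 T cells, NK cells and cycling cells were called higher in 4 of 6, 3 of 7, 4 of 7 and 7 of 11, and genes of red cell precursors in 0 of 5. None of these markers can read 0 on this scale, since every probe set has a background reading. Their part in the ribosomal protein results was not tested, and in bulk samples fewer cells of a type and less RNA per cell cannot be told apart.

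Ribosomes are built in the nucleolus from ribosomal RNA and many ribosomal proteins, which are made in the cytoplasm and imported. Growth signals through mTORC1 raise the translation of their mRNAs, which begin with a C followed by an unbroken run of pyrimidines, the 5′ terminal oligopyrimidine (TOP) tract, a feature bound by LARP1. Resting T cells keep a large pool of these mRNAs and increase ribosome production when they are activated.

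The start sites of several members are shown because the TOP tract is a sequence feature that the naming rule did not use. RefSeq (GRCm38.p6) start windows were at hand for 51 of the 63 members. In each line below, the first 40 bases lie before the annotated start and the last 20 begin at it, 5′ to 3′ on the gene's strand. Capitals mark the tract, here a C at the first transcribed base followed by at least 4 bases that are C or T.
Rpl14, chr9:120571477-120571536, + strand: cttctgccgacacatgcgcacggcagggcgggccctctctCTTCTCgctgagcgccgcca
Rpl28, chr7:4792925-4792984, + strand: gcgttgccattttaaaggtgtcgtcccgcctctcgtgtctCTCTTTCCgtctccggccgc
Rpl38, chr11:114668540-114668599, + strand: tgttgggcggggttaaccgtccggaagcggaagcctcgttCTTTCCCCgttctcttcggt
Rps10, chr17:27635225-27635284, - strand: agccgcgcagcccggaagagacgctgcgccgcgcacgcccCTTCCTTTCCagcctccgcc
Rps18, chr17:33955646-33955705, - strand: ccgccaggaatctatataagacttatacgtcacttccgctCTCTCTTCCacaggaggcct
Rps6, chr4:86857348-86857407, - strand: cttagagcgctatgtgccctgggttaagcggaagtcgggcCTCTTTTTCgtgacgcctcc
Rps28, chr17:33824543-33824602, - strand: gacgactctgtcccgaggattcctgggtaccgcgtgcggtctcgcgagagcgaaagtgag
Rpl12, chr2:32961672-32961731, + strand: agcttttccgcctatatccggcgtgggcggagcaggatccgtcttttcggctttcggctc

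The tract stood at the annotated start of 9 of the 43 large and small subunit genes with a window (20.9%), against 813 of 27025 genes of all kinds (3.01%). Rps28 and Rpl12, the last 2 lines, have no such tract at the annotated base, which says only that these letters are not at that position. The motif CCGGAAG, the core that ETS-family factors recognise, was found on either strand of windows of 250 bases before the start and 50 from it in 17 of the 43 subunit genes (39.5%), against 9.93% of all genes. AAGATGG, part of the YY1 motif, was found in 4 of 43 (9.30%), against 7.28%, and TATAAA on the gene's own strand in 4 of 43 (9.30%), against 9.77%. The median log2 fold, sanroque minus wild type, was -0.14 over the 9 subunit genes with a tract at the start and -0.10 over the 34 without.

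Most ribosomal protein genes read slightly lower in sanroque cells, and few of the differences passed the test. Of the 63 genes, 2 were called lower, 0 were called higher and 61 were not called (adjusted p below 0.05 by limma, with Benjamini-Hochberg over the whole table). The 2 were Rps28, a protein of the small subunit's head, and Rps19bp1, which is not a subunit of the ribosome. The share of members called lower, 3.17%, lies near the background of 2.51% of all genes called lower. The share of all genes called higher was 3.26%, and 5.77% were called in either direction. At an unadjusted p below 0.05, 12 members were lower (19.0%) and 0 higher, against 10.7% and 8.16% of all genes.

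The log2 fold was below 0 in 54 of the 63 genes (85.7%), against 61.5% of all genes. The median log2 fold was -0.10 over the members and -0.03 over all genes, so the typical member read 6.72% lower. Among other genes as bright as most members (a mean log2 of at least 12 over the 6 arrays), the median log2 fold was -0.00 over 84 genes, and it was -0.09 over the 35 members at that level. All 3 sanroque arrays lay below all 3 wild-type arrays in 21 members (33.3%), against a background of 13.2% of genes, and above them in 1 member (1.59%), against 9.46%. At a mean log2 of at least 12, sanroque arrays lay all below in 10 of the 35 members and in 20 of the 84 other genes. At that level they lay all above in 1 of the 35 members and in 15 of the 84 other genes. Folds were small: 49 of the 63 lay between -0.2 and 0.2 on the log2 scale, and 4 were below -0.4. The 95% limma interval of the log2 fold left out a fall of 0.5 for 55 of the 63 members.

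The shift was present on each sanroque array. Relative to each gene's wild-type mean, the median over the 63 members was 0.00, 0.01 and -0.01 on wild-type arrays 1 to 3 and -0.15, -0.11 and -0.09 on sanroque arrays 1 to 3. All 3 sanroque medians lay below all 3 wild-type medians. The same medians over all 19938 genes were -0.01, -0.02 and 0.03 on the wild-type arrays and -0.03, -0.02 and -0.05 on the sanroque arrays. Sanroque replicate 1 read below every wild-type array in 41 members (65.1%), and replicates 2 and 3 did so in 35 each (55.6%). Over all genes the shares were 31.5%, 30.4% and 36.0% for sanroque replicates 1 to 3. Leaving out sanroque replicate 1, the array with the distinct Xist and Uty readings, left a member median of -0.09 and 0 members called. The distance between the member median and the median of all genes was -0.07 with every array and -0.05 without sanroque replicate 1. It was -0.04 when wild type replicate 2 was left out and -0.11 when wild type replicate 3 was, the ends of its range over single arrays. It was -0.02 without both wild type replicate 2 and sanroque replicate 1, the arrays of each group with the highest myeloid sums, and 0 members were then called. Without sanroque replicate 3, 4 members were called lower (Rps19bp1, Rpl12, Rpl30 and Rps29), against 3.65% of all genes, and with array weights 14 were (22.2%), against 13.7%.

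**Figure D1:**
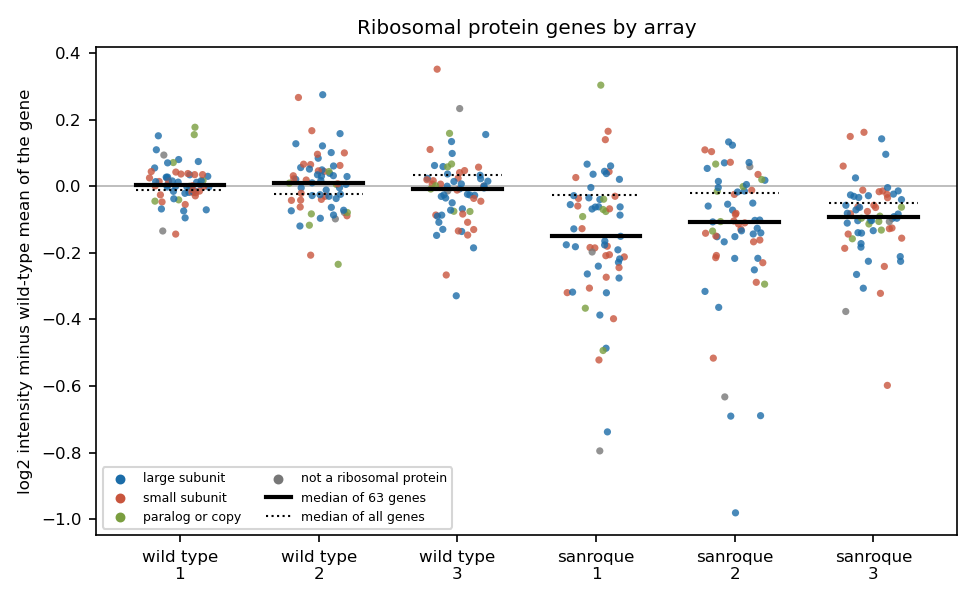
Each point is 1 of the 63 genes on 1 array, as its log2 intensity minus the gene's wild-type mean; the thick line is the median of the 63 genes and the dotted line the median of all 19938 genes. The member medians lie at 0.00, 0.01 and -0.01 in wild type and at -0.15, -0.11 and -0.09 in sanroque, and points far below the rest occur on each sanroque array.

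Rps28 encodes a small protein of the 40S head near the path by which mRNA leaves the ribosome, and it is mutated in some families with Diamond-Blackfan anemia, a failure of red cell production. Rps28 read 11.57, 11.52 and 11.57 on the wild-type arrays and 11.28, 11.26 and 11.31 on the sanroque arrays. The groups did not overlap, and the 3 arrays of each genotype lay close together. Its log2 fold was -0.27 ± 0.06 (standard error of limma's moderated fit; a change of -16.9%; Benjamini-Hochberg adjusted p = 0.0496). The call was at the threshold: leaving out any single array took the adjusted p to between 0.0741 and 0.193. Array weights were the only alternative tried under which it passed. Its 7 probe sets gave log2 folds from -0.29 to -0.17, all below 0, and a pair of them hold identical values.

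Rps19bp1 encodes a nucleolar protein that binds Rps19 and the deacetylase Sirt1. Rps19bp1 read 9.24, 9.07 and 9.13 on the wild-type arrays and 8.35, 8.51 and 8.77 on the sanroque arrays. Every sanroque array was lower than every wild-type array, with replicate 3 the nearest to wild type. Its log2 fold was -0.60 ± 0.11 (a change of -34.1%; adjusted p = 0.0301 by limma with Benjamini-Hochberg). Among single arrays, it passed only without sanroque replicate 3 (adjusted p = 0.0134), and leaving out each of the other 5 gave adjusted p-values from 0.0664 to 0.138. The second member outside the ribosome, Rps23rg1, a retroposed gene, had a log2 fold of -0.08 ± 0.12.

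**Figure D2:**
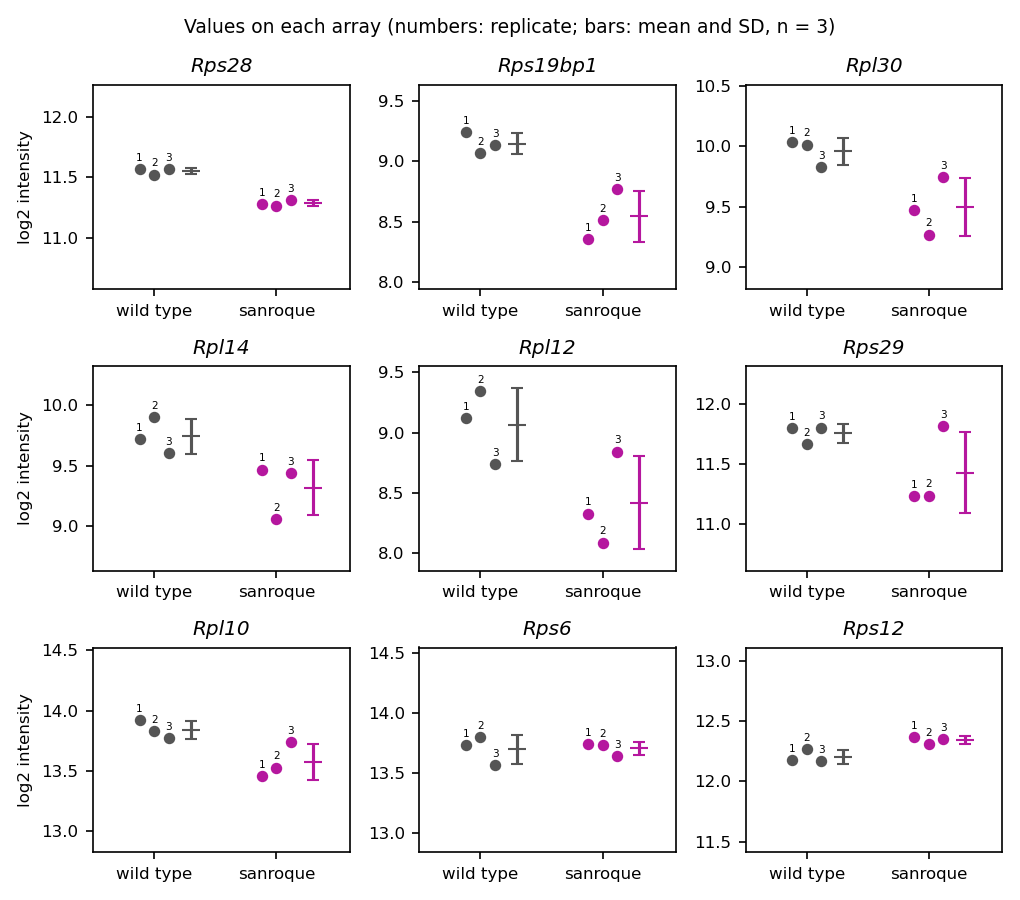
Log2 intensity of 9 members on each array, with the replicate number above each point and the mean and SD (n = 3) beside each group; every panel spans the same range of log2 units. Rps28 shows a small gap with tight groups, Rps29 and Rpl12 show sanroque replicate 3 apart from replicates 1 and 2, and Rps6 shows groups that overlap.

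Large subunit proteins form the peptidyl transferase centre, the exit tunnel and the stalk that recruits elongation factors. None of the 33 large subunit genes passed, 28 had a log2 fold below 0, and the median was -0.10. Of all genes 5.77% were called in either direction and 61.5% had a fold below 0, as did 85.7% of the 63 members. The largest fold was that of Rpl12, which sits at the base of the stalk. Rpl12 read 9.12, 9.34 and 8.74 on the wild-type arrays and 8.33, 8.09 and 8.84 on the sanroque arrays. The groups overlapped, since sanroque replicate 3 read above wild type replicate 3. Its log2 fold was -0.65 ± 0.22 (adjusted p = 0.154 by limma with Benjamini-Hochberg), and without sanroque replicate 3 it was -0.86 with an adjusted p = 0.0445.

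Rpl30, which also regulates the splicing of its own transcript in yeast, read 10.03, 10.01 and 9.83 on the wild-type arrays and 9.47, 9.27 and 9.75 on the sanroque arrays. Its groups did not overlap, though sanroque replicate 3 lay close to wild type replicate 3. The log2 fold was -0.46 ± 0.13 (adjusted p = 0.0903 by limma with Benjamini-Hochberg), and without sanroque replicate 3 it was -0.59 with an adjusted p = 0.0278. Rpl14 read 9.72, 9.90 and 9.61 on the wild-type arrays and 9.47, 9.05 and 9.44 on the sanroque arrays. Sanroque replicate 2 was the lowest and the groups did not overlap. Its log2 fold was -0.42 ± 0.13 (adjusted p = 0.122 by limma with Benjamini-Hochberg).

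Rpl10 is added late, in the cytoplasm, and its placement is tied to release of the export adaptor Nmd3. Rpl10 read 13.92, 13.83 and 13.77 on the wild-type arrays and 13.46, 13.53 and 13.74 on the sanroque arrays. The groups did not overlap, but replicate 3 of each genotype nearly met. The log2 fold was -0.27 ± 0.09 (adjusted p = 0.159 by limma with Benjamini-Hochberg), and the gene's 6 probe sets ranged from -0.32 to -0.26. Rpl10 is X-linked, and without sanroque replicate 1 its log2 fold was -0.21. Rpl38, needed for patterning of the mouse axial skeleton, read 12.80, 12.65 and 12.62 on the wild-type arrays and 12.37, 12.32 and 12.59 on the sanroque arrays. Again sanroque replicate 3 was nearest to wild type without overlapping it, and the log2 fold was -0.26 ± 0.09 (adjusted p = 0.181 by limma with Benjamini-Hochberg).

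Folds were smaller in the rest of the stalk and at the exit tunnel. The stalk proteins Rplp0, Rplp1 and Rplp2, which bind elongation factors, had log2 folds of -0.10 ± 0.07, -0.07 ± 0.11 and -0.14 ± 0.07, and only Rplp2 had groups that did not overlap. Rpl5, which carries 5S ribosomal RNA into the large subunit and can bind Mdm2, had a log2 fold of -0.12 ± 0.07 without overlap. Of 4 measured proteins at the rim of the exit tunnel, Rpl19, Rpl26 and Rpl23a had log2 folds of 0.02, 0.04 and 0.03. Only the brightest of the 13 Rpl23a probe sets lay above 0, and the 13 ranged from -0.11 to 0.03. Rpl22, which αβ T cells need to develop, had a log2 fold of -0.12 ± 0.07 (adjusted p = 0.488 by limma with Benjamini-Hochberg). The 95% interval for Rpl22 ran from -0.29 to 0.05. Single arrays moved several of these folds: Rplp0 was -0.06 and Rplp1 0.01 without sanroque replicate 1, Rplp1 was -0.17 without sanroque replicate 3, and Rpl22 was -0.07 without wild type replicate 2. None of these 8 genes passed.

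Small subunit proteins hold the mRNA and the decoding centre. Of 21 small subunit genes 1 was called lower, which was Rps28, and 0 were called higher. In 18 the log2 fold was below 0, and the median was -0.11. The shares of all genes were 2.51% called lower, 3.26% called higher and 61.5% below 0, and 85.7% of the 63 members were below 0. Rps29, a zinc-binding protein of the head, read 11.80, 11.67 and 11.80 on the wild-type arrays and 11.23, 11.24 and 11.82 on the sanroque arrays. Sanroque replicates 1 and 2 were low and replicate 3 was the highest of all 6 arrays. The log2 fold was -0.33 ± 0.16 (adjusted p = 0.345 by limma with Benjamini-Hochberg), and without sanroque replicate 3 it was -0.52 with an adjusted p = 0.0207. All 4 Rps29 probe sets showed folds between -0.34 and -0.32.

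Rps3a1, on the platform, read 11.80, 12.07 and 11.53 on the wild-type arrays and 11.62, 11.58 and 11.20 on the sanroque arrays. The groups overlapped and replicate 3 was the lowest of each genotype, with a log2 fold of -0.33 ± 0.16 (adjusted p = 0.350 by limma with Benjamini-Hochberg). It was -0.20 without wild type replicate 2 and likewise -0.20 without sanroque replicate 3. Rps9, in the body, read 11.99, 11.91 and 11.96 on the wild-type arrays and 11.56, 11.75 and 11.88 on the sanroque arrays. Its groups did not overlap, and its log2 fold was -0.23 ± 0.09 (adjusted p = 0.238 by limma with Benjamini-Hochberg). It was -0.14 without sanroque replicate 1, and a second, slightly dimmer Rps9 probe set gave -0.08. Rps3, at the mRNA entry, had a log2 fold of -0.20 ± 0.08 with groups that did not overlap.

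Several other well-known small subunit genes were not called, and their folds differed in size. Rps6, the substrate of S6 kinase, read 13.73, 13.80 and 13.56 on the wild-type arrays and 13.74, 13.73 and 13.64 on the sanroque arrays. The groups overlapped, and the 95% interval of its log2 fold ran from -0.19 to 0.20. Its fold of 0.01 turned below 0 under median centring (-0.04). Rps19, the gene most often mutated in Diamond-Blackfan anemia, had a log2 fold of -0.21 ± 0.15, with wild type replicate 3 at 10.22 apart from 9.66 and 9.72, and -0.04 without that array. Rps14 and Rpsa, the latter also described as a laminin receptor, had log2 folds of -0.06 ± 0.07 and -0.13 ± 0.07. Rpsa was at -0.05 with the mean of its probe sets and 0.01 with the dimmest. Rps12, of the head, was the only member with all sanroque arrays above all wild-type arrays, and it was singled out after its values were seen. It read 12.17, 12.27 and 12.17 on the wild-type arrays and 12.37, 12.31 and 12.35 on the sanroque arrays, with a log2 fold of 0.14 ± 0.06 (adjusted p = 0.320 by limma with Benjamini-Hochberg). All 14 of its probe sets were above 0, from 0.05 to 0.14. Several of the 14 hold identical values, and in some the groups overlapped.

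**Figure D3:**
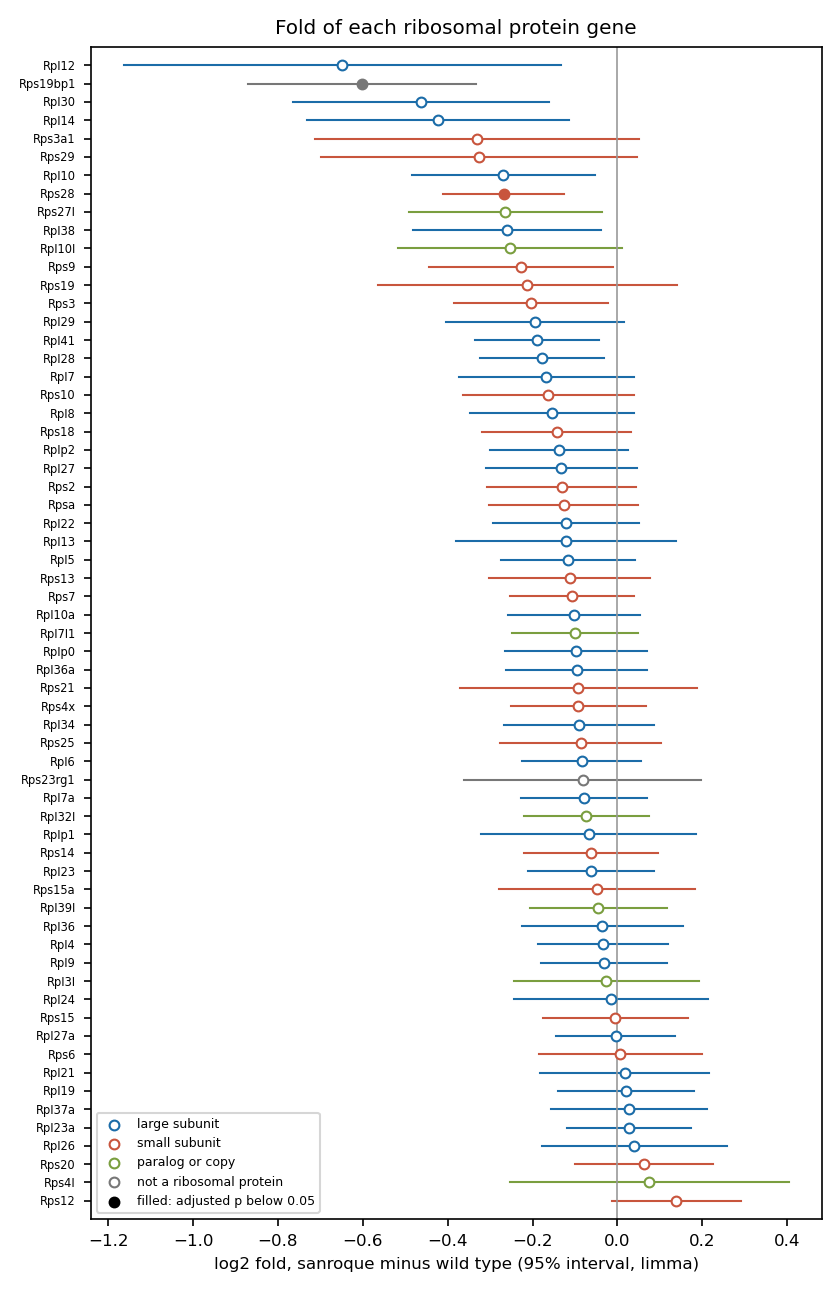
Log2 fold (sanroque minus wild type) of each of the 63 genes with its 95% limma interval, coloured by subunit; filled points passed an adjusted p of 0.05. Folds run from -0.65 (Rpl12) to 0.14 (Rps12), 54 lie below 0, and only Rps19bp1 and Rps28 are filled.

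Of 8 measured genes mutated in Diamond-Blackfan anemia, Rps28 alone was called, 7 had a log2 fold below 0, and their median was -0.15. Of all genes 2.51% were called lower and 61.5% had a fold below 0, and 85.7% of the 63 members had a fold below 0. Other genes of that list, such as Rpl11, Rps24 and Rps26, have no value of their own here.

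Paralogs replace or accompany a ribosomal protein in particular tissues. None of the 7 paralogs and copies passed, against 5.77% of all genes called in either direction, and their median log2 fold was -0.07. Rps27l, a paralog of Rps27 that p53 can induce, read 7.01, 6.77 and 6.78 on the wild-type arrays and 6.49, 6.56 and 6.72 on the sanroque arrays. The groups did not overlap, and its log2 fold was -0.26 ± 0.10 (adjusted p = 0.186 by limma with Benjamini-Hochberg). Rpl10l, the testis paralog of Rpl10, read 5.15, 5.08 and 5.00 on the wild-type arrays and 4.58, 4.97 and 4.92 on the sanroque arrays, low on this scale, with a log2 fold of -0.25 ± 0.11. Without sanroque replicate 1, its lowest array, the fold was -0.13. Rpl39l and Rpl3l, known from testis and muscle, had log2 folds of -0.04 and -0.03.

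In 3 pairs both the paralog and its parent gene were measured. The difference within each array, Rpl7l1 minus Rpl7, moved by 0.07 between genotypes, Rpl10l minus Rpl10 by 0.02 and Rps4l minus Rps4x by 0.17. The exact permutation p-values (two-sided, 3 against 3, smallest possible 0.10) were 0.60, 1.00 and 0.60, and 0.90, 1.00 and 0.90 after Benjamini-Hochberg adjustment over the 3 pairs. The last 2 differences changed sign under 1 or more alternatives, so no direction is given for them.

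Ribosomal protein genes have many processed copies in the mouse genome, and the array carries probe sets for a number of these. The 63 genes had 219 probe sets, and 39 genes had more than 1, up to 14. Of the 219, 180 had a log2 fold below 0, against 59.3% of all probe sets, and their median was -0.09. When every deposited probe set was fitted separately, 0 of the 219 passed (limma, Benjamini-Hochberg over 35399 probe sets), against 0.398% of all probe sets called lower. Sanroque arrays lay all below wild type in 73 and all above in 10 of the 219, against 11.5% and 8.13% of all probe sets. All 10 of the latter belong to Rps12, and probe sets of 1 gene are not separate observations. A further 239 probe sets name a rule symbol together with other symbols; 221 of them had a fold below 0, with a median of -0.09, and 0 passed. Probe sets of 1 gene mostly gave like folds, with a median range of 0.06 and all folds on 1 side of 0 in 32 of the 39 genes. They share sequence, and 19 of the 219 have values identical to those of another.

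Rps15, of the head, had the widest range. Ranges over 0.1 also occurred in other genes, such as Rps4l (-0.11 to 0.08), Rps21 (-0.26 to -0.09) and Rpsa (-0.13 to 0.01). Its brightest probe set, used here, read 13.07, 13.10 and 13.07 on the wild-type arrays and 13.02, 13.19 and 13.02 on the sanroque arrays. The dimmest of its 3 probe sets read 11.48, 11.30 and 11.42 on the wild-type arrays and 10.78, 11.03 and 11.01 on the sanroque arrays. The first overlaps between genotypes and the second does not, with log2 folds of -0.00 and -0.46, and the dimmest passed when the dimmest probe set stood for each gene. The 24 members with 1 probe set had a median log2 fold of -0.13, against -0.10 for the 39 with several.

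**Figure D4:**
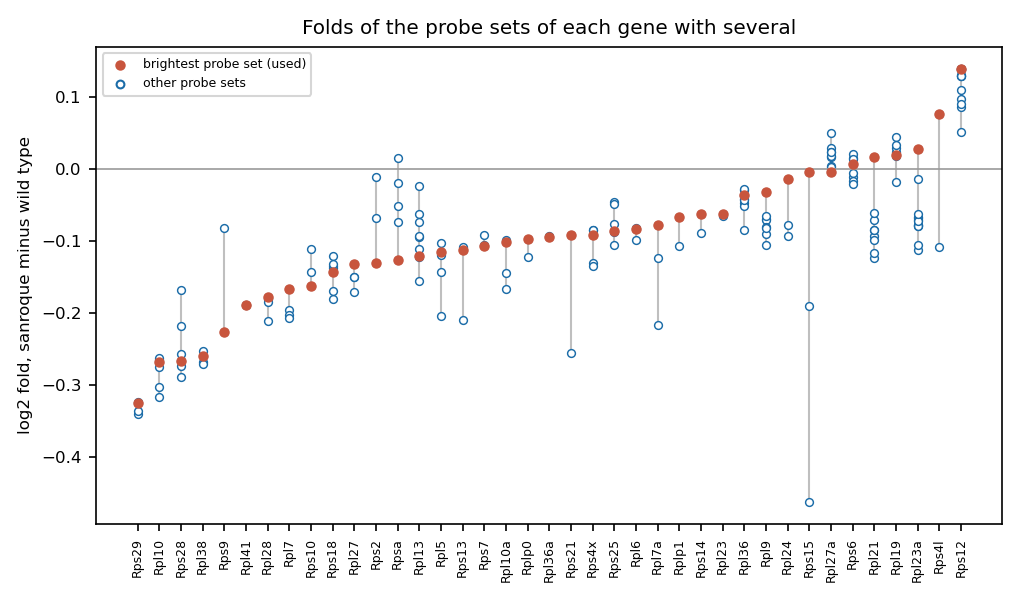
Log2 fold (sanroque minus wild type) of every probe set of the 39 genes with more than 1, with the brightest, used for the gene, filled and the others open. Ranges within a gene are mostly narrow (median 0.06), and Rps15 is widest, from -0.46 to -0.00.

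The median log2 fold of genes that build ribosomes was further below 0 than that of the ribosomal proteins. Of 33 ribosome assembly factors, 8 were called lower, 0 were called higher, 31 had a log2 fold below 0 and the median was -0.32. Most of these factors had a mean log2 between 7 and 11, and the 14 members in that range had a median log2 fold of -0.13. Over all genes 2.51% were called lower and 61.5% had a fold below 0. Relative to each gene's wild-type mean, the list's median was 0.05, 0.02 and -0.08 on the wild-type arrays and -0.36, -0.40 and -0.25 on the sanroque arrays. The sanroque arrays lay well below the wild-type arrays, and replicate 3 was nearest to them. Rrp9, a protein of the U3 snoRNP that acts in early processing, fell by 0.66 on the log2 scale (SE 0.15), and Bccip, which takes part in large subunit assembly, by 0.59 (SE 0.09). Ltv1, a 40S assembly factor, fell by 0.55 (SE 0.08), and Eif6, which keeps a new 60S subunit from joining a 40S subunit too early, by 0.50 (SE 0.08). Their adjusted p-values were 0.0478, 0.0157, 0.0157 and 0.0183 (limma, Benjamini-Hochberg).

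The remaining 4 called assembly factors are named after their values were seen. They were the rRNA methyltransferases Fbl (log2 fold -0.47) and Emg1 (-0.44), the endonuclease Nob1 (-0.45) and the 60S factor Nle1 (-0.45). Nop10 had the largest log2 fold of the list, -0.74 ± 0.20, and did not pass, and Ncl, which encodes nucleolin, had 0.20 ± 0.09. The 8 calls became 0 when wild type replicate 1 was left out, 1 when either replicate 2 was, 4 when sanroque replicate 1 was and 14 when sanroque replicate 3 was. They became 0 when wild type replicate 2 and sanroque replicate 1 were both left out. The list was not compared with the members by a test.

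Among 13 genes of RNA polymerase I and rRNA transcription 3 were called lower and 0 higher, 9 had a log2 fold below 0, and the median was -0.12, beside the same background shares. Taf1a, of the promoter selectivity factor, fell by 0.68 (SE 0.11), Polr1c, a subunit shared with RNA polymerase III, by 0.66 (SE 0.13) and Polr1e by 0.51 (SE 0.07) on the log2 scale. Their adjusted p-values were 0.0187, 0.0315 and 0.0132 (limma, Benjamini-Hochberg). The 3 calls became 0 when wild type replicate 1 was left out, and 0 again when sanroque replicate 2 was. Leaving out wild type replicate 2 gave 1 call, as did leaving out sanroque replicate 1. Ubtf and Rrn3, other factors of this step, had log2 folds of 0.17 and 0.19 and did not pass.

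Other TOP mRNAs stood near the median of all genes. Of 14 such genes 1 was called lower and 0 higher, with a median log2 fold of -0.02. Over all genes 2.51% were called lower and 3.26% higher. Eif3h, a subunit of the initiation factor eIF3, fell by 0.32 on the log2 scale (SE 0.07; adjusted p = 0.0432 by limma with Benjamini-Hochberg). Eef1a1 and Eef2, the main elongation factors, had log2 folds of -0.03 and 0.13. Fau, whose product includes a 40S protein, had -0.00 ± 0.09 and is the only measured gene of the ribosome outside the symbol rule on the list made for these. The mean of Fau's probe sets gave -0.10 and its dimmest probe set -0.19. Of 16 genes of the mTORC1, S6 kinase, LARP1 and Myc axis 2 were called lower and 0 higher, with a median of -0.06, beside the same background shares. These were Pdcd4, a translation inhibitor that S6 kinase targets (fell by 0.50 on the log2 scale, SE 0.09), and Rheb, the GTPase that activates mTORC1 (fell by 0.40 on the log2 scale, SE 0.09). Larp1 did not pass, at a fold of 0.29 ± 0.07 on the log2 scale (adjusted p = 0.0522 by limma with Benjamini-Hochberg), and Myc had -0.10 ± 0.09. Tsc2 had 0.36 ± 0.09 and the TOP mRNA Pabpc1 0.25 ± 0.07, and neither passed. Sanroque arrays lay all below wild type in 4 of the 16 and all above in 5, against 13.2% and 9.46% of all genes. With quantile normalization 2 of the 16 and 1 of the 14 were called higher, and 1583 of all genes were called in either direction. Each of the 3 calls, of Eif3h, Pdcd4 and Rheb, depended on single arrays. Eif3h did not pass when any 1 of the 6 was left out, Pdcd4 passed only without sanroque replicate 3 (adjusted p = 0.0424, limma), and Rheb only without wild type replicate 3 (adjusted p = 0.0263, limma).

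**Figure D5:**
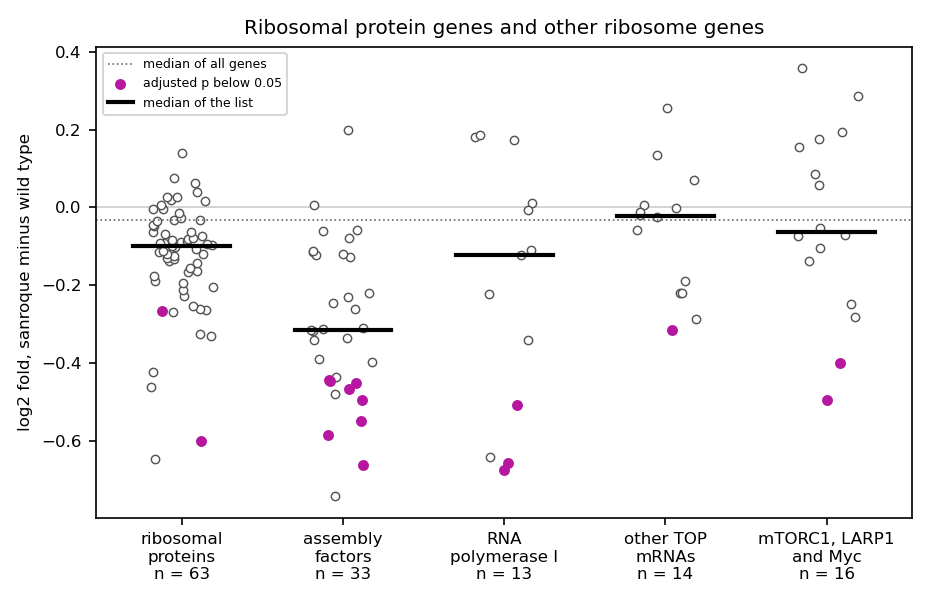
Log2 fold (sanroque minus wild type) of each gene in 5 lists, with the list median as a thick line, the median of all genes dotted at -0.03, and filled points for an adjusted p below 0.05. The medians are -0.10 for ribosomal proteins, -0.32 for assembly factors, -0.12 for RNA polymerase I, -0.02 for other TOP mRNAs and -0.06 for the mTORC1, LARP1 and Myc list.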

How the data were processed

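Total RNA from the 6 samples was hybridised to Affymetrix Mouse Gene 1.0 ST arrays. The authors deposited 1 intensity per probe set and array on a linear scale, and the values of the 6 arrays lie close in distribution. How they corrected, summarized and normalized the values is not given in the sources used here. Partek is listed, without saying for which step, per the submitters' processing notes. No column was left out.

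The platform annotation gives exactly 1 symbol for 21789 of 35399 probe sets, several for 1621 and none for 11989. The probe set with the highest mean log2 stood for each of 19938 genes, of which 19856 matched the gene table. Log2 values were compared by limma 3.58.1 (lmFit and eBayes, R 4.3.3) over the 6 arrays, with Benjamini-Hochberg adjustment over all genes and a threshold of 0.05. Arrays carry no depth, and their number limits the precision. P-values measure the spread between these samples. The script was tested on simulated data with independent noise and 200 changed genes. It recovered 0.8% of log2 changes of 0.25, 55.4% of 0.5, 97.8% of 1 and 100% of 2. A member that was not called may therefore still differ by as little as most member folds. In the data 1151 genes were called, and the adjusted cutoff depends on how many genes change. The shares recovered in the simulation need not hold for the data.

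The replicate numbers do not pair the arrays. Alternatives were median centring, quantile normalization, other probe set choices, other variance models, leaving out dim genes, the replicate number as a block and leaving arrays out.

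The members and lists were chosen with earlier results of these data known. Members were named with values if called, among the 12 largest folds or the 6 largest without overlap, or on a fixed list (Rps6, Rplp0, Rplp1, Rplp2, Rpsa, Rpl5, Rpl11, Rps14, Rps19, Rpl22, Rpl22l1, Rps27l, Rpl10, Rpl12, Rpl38, Rpl13a, Rps3). From each other list up to 4 called genes with the largest folds were named; where no gene was called, the 2 of lowest p were. Other genes were named after their values were seen. Start windows came from RefSeq, GRCm38.p6; annotated starts can differ from the starts used in these cells.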

Additional observations from a re-analysis of the deposited data

How the results depend on the processing

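Under each alternative run, 0 members were called higher. The 2 members called lower became 1 with the mean of a gene's probe sets, without dim genes, with quantile normalization, with median centring and with a trended robust variance. They became 14 with array weights, 0 without wild type replicate 2 and sanroque replicate 1, and 0 with every probe set fitted singly, an alternative chosen after seeing the data. Leaving out each array in turn gave 0 to 4. Of all genes, 1151 were called, 631 with median centring, 4733 with array weights, 353 without wild type replicate 2 and sanroque replicate 1, and 218 to 1315 leaving out each array in turn. The median log2 fold of the members was -0.15 with median centring, which moved the median of all genes to -0.08, and -0.12 to -0.09 leaving out each array in turn.

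With the replicate number as a block, 301 genes and 0 members were called; deviations of same-numbered arrays correlated at -0.05, -0.16 and -0.36.

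Of the 63 members, 54 had a log2 fold below 0. The count was 60 with median centring, 51 with quantile normalization and 49 without sanroque replicate 3, so signs turned in members not listed here. Among the genes named by the choices above and the paralog pairs, 4 genes and 2 differences turned sign. With the dimmest probe set Rpsa turned from -0.13 to 0.015 and Rps4l minus Rps4x from 0.17 to -0.024. With quantile normalization Fau was 0.018 and Rpl10l minus Rpl10 was -0.019. Rps6 was -0.042 with median centring and -0.0092 with array weights. Leaving out each array in turn gave ranges that cross 0: -0.060 to 0.057 for Rps6, -0.17 to 0.0078 for Rplp1, -0.0695 to 0.052 for Fau and -0.080 to 0.078 for Rpl10l minus Rpl10. For each of these changes the cause was not tested.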
